A study of Mus musculus with 2 samples.

Results

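Splicing and 3′ end processing factors, the proteins that remove introns from nascent transcripts and cut and polyadenylate their ends, were examined as transcripts in an FMRP RNA immunoprecipitation with sequencing (RIP-seq) from testis of adult wild-type mice. The series holds 1 input library, from an aliquot of the testis lysate kept before precipitation, and 1 FMRP RIP library, from RNA recovered with an anti-FMRP antibody. The number of animals behind each library is not given in the sources used here, and no control IgG library was used here. Members were chosen by a rule on gene symbols that was drawn up with earlier results of these data known. It takes the Srsf, Srrm, Prpf, Sf3, Hnrnp, Rbm, Cpsf, Ints and related symbol families, and some genes named singly. Of the 4788 rows in the deposited table, 75 met that rule. The 75 rows stand for 73 genes, because *Sf1* and *Hnrnpu* each have a row on a chromosome and another on a patch scaffold. The table is restricted to protein-coding genes that the authors had called higher in the FMRP RIP, so every member is higher there by construction and its direction is no finding.

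FMRP, the product of *Fmr1*, is an RNA-binding protein that associates with ribosomes and represses the translation of many of the mRNAs it binds, and its loss causes fragile X syndrome, of which enlarged testes are a feature. Introns are removed by the spliceosome, which is built from small nuclear ribonucleoproteins (snRNPs), and its choice of splice sites is steered by serine/arginine-rich (SR) proteins and hnRNPs. Transcripts are then released by cleavage and polyadenylation. Testis is known for its extensive alternative splicing and its frequent use of alternative polyadenylation sites.

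Levels are given in CPM, the reads of a gene divided by the size of its library. They are not corrected for gene length, so the level of each gene was compared between the libraries. Genes were set against each other by level only in classes of input CPM and in a rank correlation, and levels were summed over markers. In these uses gene length enters as well. The CPM steps gave totals of 30849871 input reads and 36506932 RIP reads, so that 1 read was worth 0.0324 CPM and 0.0274 CPM, respectively. The listed genes together took 14.2% of the reads in the input library, against 55.2% in the RIP library. A low input CPM may come from few cells that carry a transcript or from little RNA per cell, and these cannot be told apart. Of the germ cell markers looked up, 1 of 6 for spermatogonia, 4 of 9 for spermatocytes and 2 of 9 for spermatids were listed, with summed levels of 1.07, 38.7 and 117.3 CPM in the input and 4.33, 190.5 and 625.1 CPM in the FMRP RIP. None of the 8 Sertoli cell, 6 Leydig cell, 5 macrophage and 3 endothelial markers was listed, which says nothing about their level in either library.

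The measure used throughout is the log2 of the FMRP RIP level over the input level, each with 1 CPM added, called the log2 ratio here. For single genes the plain ratio of the CPM values is given as well, with an exact Clopper-Pearson 95% interval that covers counting error only. With 1 library per group there is no replicate error and no test.

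As a whole, the splicing and 3′ end factors were precipitated about as strongly as the other listed genes. The log2 ratio was above 1 for 51 of the 75 rows (68.0%), against 70.1% of all 4788 listed rows, and the share is therefore close to the background. The median log2 ratio was 1.37 (quartiles 0.94 and 2.17) for the members and 1.35 (0.92 and 2.0) for all listed genes. With 1 row per gene symbol the medians were 1.33 and 1.35, so which is higher depends on the rows counted. A 1.5-fold difference was the authors' own threshold for calling genes, and the smallest plain ratio of all listed rows was 1.59. That every row reaches it without the added 1 CPM is therefore fixed by the selection. With the added 1 CPM, 74 of the 75 rows still did, against a background of 97.3%. The exception, *Rbm12b1*, had a plain ratio of 2.0 and fell under the threshold through the added 1 CPM. Counted by gene, 19 of the 73 had a plain ratio of 5 or more (26.0%), compared with 23.9% of all listed rows. The members spread widely around their median, from a log2 ratio of 0.51 for *Rbm12b1* to 4.43 for *Rbbp6*. The medians of the role groups ran from 1.08 to 1.77, and the full range of each group was wider than the gap between these medians. Their order depends on the added 1 CPM. Without it, the median of the hnRNPs and tissue-specific regulators was 1.41. That lay above the spliceosome group at 1.27 and the Integrator, THO and writer group at 1.28.

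**Figure D1:**
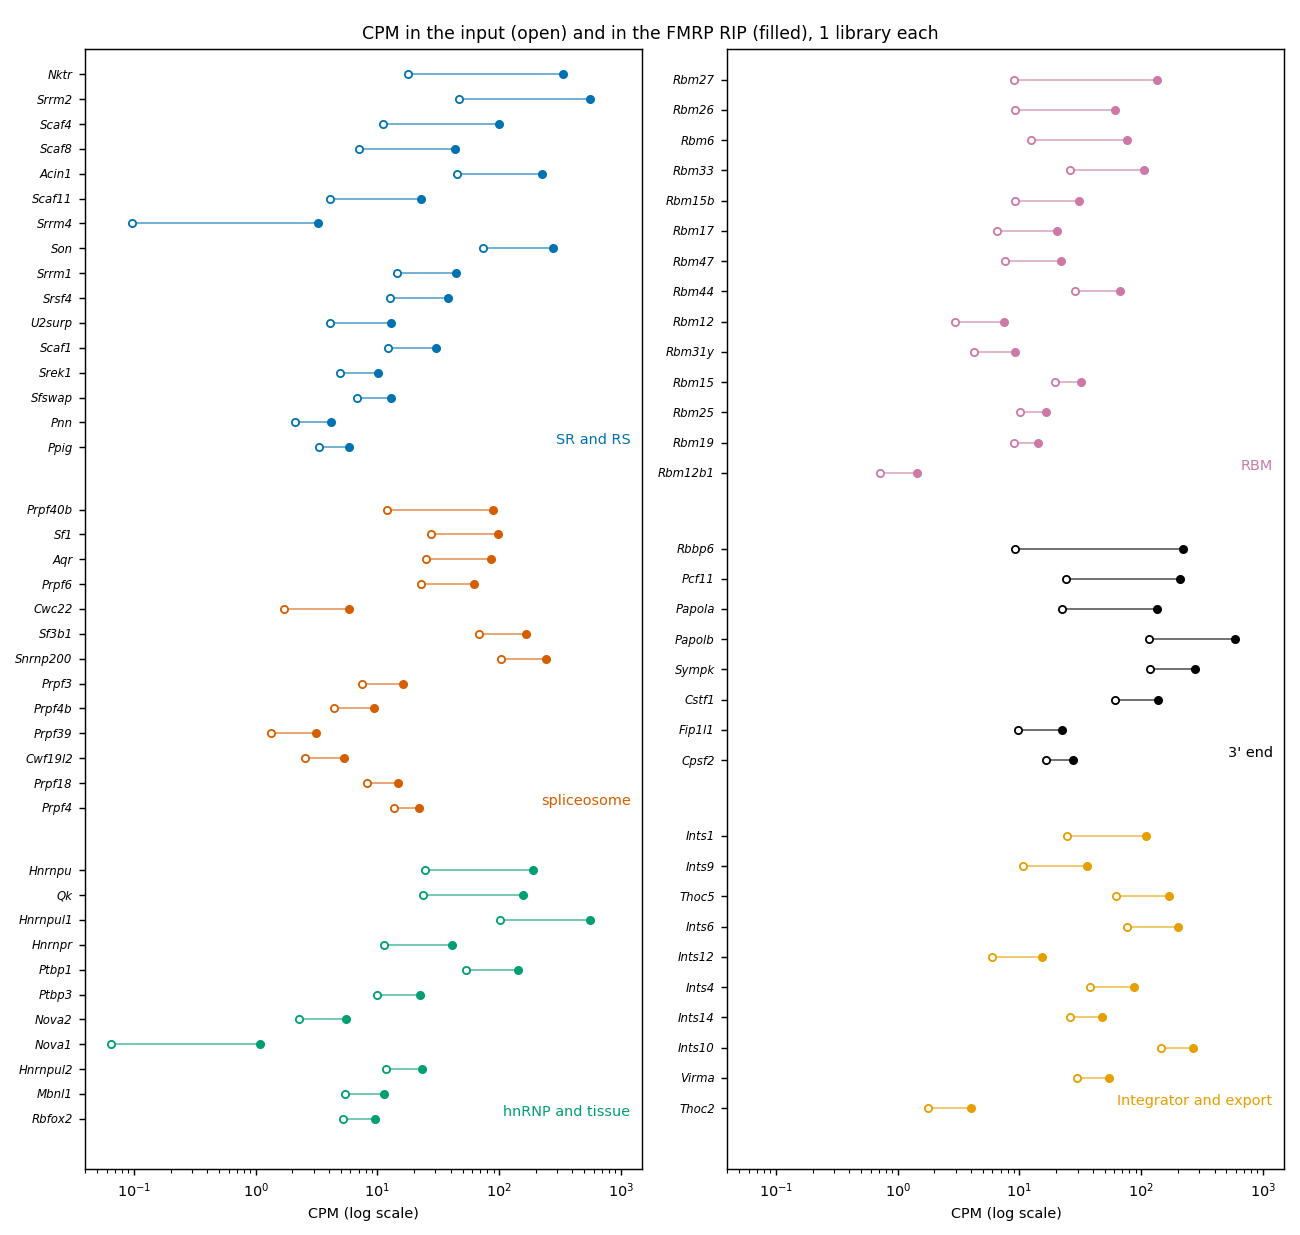
CPM of 72 of the 73 genes in the input (open circles) and in the FMRP RIP (filled circles), 1 library each, on a log axis and grouped by role, with the highest log2 ratio at the top of each group. Every line runs to the right, as the table was selected for; the long lines of *Rbbp6*, *Nktr*, *Rbm27* and *Srrm2* contrast with short ones such as *Rbm19* and *Prpf4*.

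The cleavage and polyadenylation factors included the member with the highest log2 ratio. *Rbbp6* (ENSMUSG00000030779, chromosome 7 from 122965686 to 123002557, GRCm38), which encodes a RING-type ubiquitin ligase that also takes part in mRNA 3′ end formation, had 9.27 CPM in the input library and 219.7 CPM after precipitation. Its plain ratio was 23.7 (interval 21.1 to 26.8), its log2 ratio was 4.43, and it ranked 38 among the 4788 listed rows. *Pcf11* (ENSMUSG00000041328, chromosome 7 from 92643543 to 92669934), a cleavage factor that binds the tail of RNA polymerase and acts in transcription termination, had 24.2 CPM and 206.7 CPM, a ratio of 8.52 (7.91 to 9.20). The intervals of both genes lie apart from each other and above those of the other members of this group.

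Both listed poly(A) polymerases followed. *Papola* (ENSMUSG00000021111, chromosome 12 from 105784694 to 105838944), the canonical nuclear enzyme, had 22.5 CPM in the input library against 134.0 CPM in the RIP library, a ratio of 5.94 (5.49 to 6.45). *Papolb* (ENSMUSG00000074817, chromosome 5 from 142525838 to 142530076), the testis-specific poly(A) polymerase, had 116.5 CPM and 588.0 CPM, a ratio of 5.05 (4.87 to 5.23). *Papolb* lies inside the reference span of another gene, *Radil*, and both polymerase genes carried fractions of reads.

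The subunits of the cleavage complexes stood lower. *Sympk*, which encodes the scaffold symplekin, had 118.3 CPM in the input library and 274.9 CPM after precipitation, a ratio of 2.32 (2.24 to 2.41). *Cstf1*, a subunit of the cleavage stimulation factor, had 61.4 CPM and 138.6 CPM, a ratio of 2.26 (2.14 to 2.38). *Fip1l1*, a subunit of the cleavage and polyadenylation specificity factor (CPSF), had 9.79 CPM and 22.2 CPM, a ratio of 2.27 (1.98 to 2.6). The intervals of these 3 genes overlap. *Cpsf2*, another CPSF subunit, had the lowest ratio of the group, 1.68 (1.51 to 1.87), from 16.5 CPM and 27.7 CPM. Of the 8 genes in the group, 7 had a log2 ratio above 1 (87.5%, against 70.1% of all listed rows), and the median was 1.77. Among the 5 genes of the group with whole reads in both libraries, which leaves out both polymerases and *Sympk*, 4 were above 1 and the median was 1.16. For all such listed rows the share above 1 was 69.3% and the median 1.33.

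The SR proteins and their RS-domain partners held 3 of the members with the highest log2 ratios. *Nktr* (ENSMUSG00000032525, chromosome 9 from 121719169 to 121756843) encodes a large cyclophilin with an arginine/serine-rich tail. It had 17.9 CPM in the input library against 334.7 CPM in the RIP library, a ratio of 18.7 (17.2 to 20.4) and rank 55. *Srrm2* (ENSMUSG00000039218, chromosome 17 from 23790532 to 23824741), a scaffold protein of nuclear speckles, had 47.1 CPM and 553.5 CPM, a ratio of 11.8 (11.1 to 12.4) and rank 133. *Scaf4* (ENSMUSG00000022983, chromosome 16 from 90225680 to 90284503), which binds the tail of RNA polymerase and restrains premature polyadenylation together with *Scaf8*, had 11.2 CPM and 99.7 CPM, a ratio of 8.89 (7.96 to 9.95). For *Scaf8* the levels were 7.03 CPM and 43.5 CPM, a ratio of 6.19 (5.37 to 7.16).

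In the middle of this group lay *Acin1*, a component of a complex that joins the exon junction complex, with 45.1 CPM in the input library and 223.4 CPM after precipitation (ratio 4.95, 4.68 to 5.25). *Son*, the other large nuclear speckle scaffold, had 74.1 CPM and 274.4 CPM (ratio 3.70, 3.54 to 3.88). *Srrm1*, a splicing coactivator, had 14.4 CPM and 44.3 CPM (ratio 3.07, 2.76 to 3.41), and *Srsf4*, the sole listed gene of the classical Srsf family, had 12.6 CPM and 37.9 CPM (ratio 3.01, 2.69 to 3.38). The intervals of *Srrm1* and *Srsf4* overlap and both lie below that of *Son*.

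*Srrm4*, which promotes neuronal microexon splicing, had 0.0972 CPM in the input, equal to 3 reads, and 3.26 CPM, or 119 reads, in the FMRP RIP. Its ratio was 33.5, with an interval from 11.2 to 164.8, and its log2 ratio with the added 1 CPM was 1.96. With so few input reads *Srrm4* is listed because its FMRP RIP count was high. The interval leaves this selection out, so the size of the ratio is not read further. At the low end were *Pnn*, which encodes the speckle and desmosome protein pinin, with 2.09 CPM and 4.16 CPM (log2 ratio 0.74), and *Ppig*, another cyclophilin with an RS-rich tail, with 3.30 CPM and 5.81 CPM (0.66). *Scaf11*, *U2surp* and *Scaf1* lay between 1.26 and 2.23, and *Srek1* and *Sfswap* at 0.89 and 0.84. In all, 12 of the 16 genes had a log2 ratio above 1, against 70.1% of all listed rows, and the median was 1.71.

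**Figure D2:**
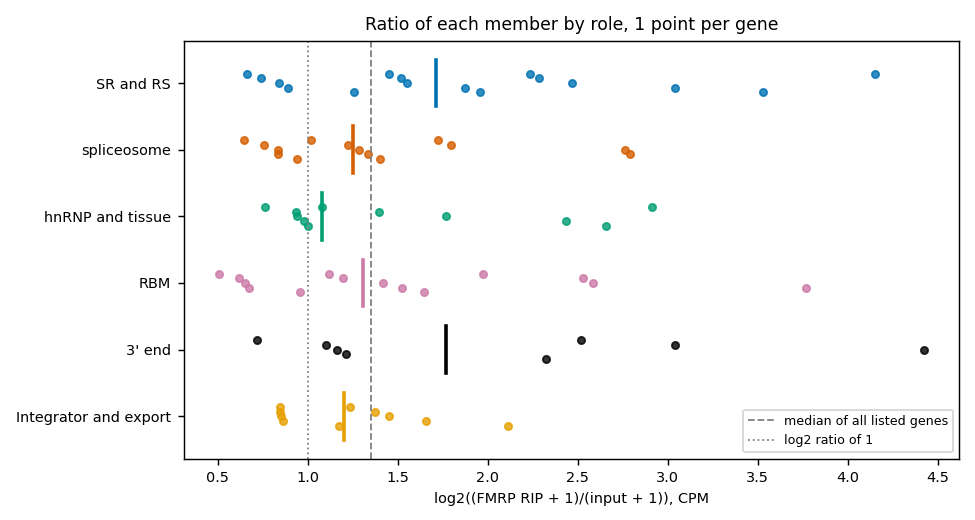
Log2 ratio of each of the 73 genes, 1 point per gene, in 6 role groups; the coloured bars mark the group medians, the dashed line the median of all listed genes (1.35) and the dotted line a log2 ratio of 1. With the added 1 CPM the medians run from 1.08 for the hnRNPs and tissue regulators to 1.77 for the 3′ end factors, and the points of all groups overlap. The order of the medians changes without it.

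Among the spliceosome subunits and assembly factors, 9 of 14 genes had a log2 ratio above 1 (64.3%, against 70.1% of all listed rows). The median was 1.25. *Prpf40b*, an early splicing factor, had 12.0 CPM in the input library against 89.1 CPM in the RIP library, a ratio of 7.41 (6.65 to 8.27). *Sf1*, which recognises the branch point of introns, had 27.5 CPM and 98.1 CPM on each of its rows, a ratio of 3.56 (3.30 to 3.84). *Aqr*, an intron-binding helicase, had 25.3 CPM and 85.7 CPM, a ratio of 3.39 (3.14 to 3.67).

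*Sf3b1*, the largest subunit of the complex that grips the branch site, had 68.2 CPM in the input library and 167.3 CPM after precipitation, a ratio of 2.45 (2.33 to 2.58). *Snrnp200*, the helicase that unwinds snRNA pairs during activation, had 102.7 CPM and 240.6 CPM, a ratio of 2.34 (2.25 to 2.44), which overlaps the interval of *Sf3b1*. *Prpf18*, which acts late in splicing, had 8.24 CPM and 14.6 CPM (log2 ratio 0.76), and *Prpf4*, a subunit of the tri-snRNP, had 13.8 CPM and 22.2 CPM (0.65). Another 6 genes, *Prpf6*, *Cwc22*, *Prpf3*, *Prpf4b*, *Prpf39* and *Cwf19l2*, had log2 ratios between 0.83 and 1.40.

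Among the hnRNPs and tissue-specific regulators, *Hnrnpu*, *Qk* and *Hnrnpul1* had the highest log2 ratios. *Hnrnpu* (ENSMUSG00000039630, chromosome 1 from 178321108 to 178337797), which encodes a nuclear scaffold protein, had 24.4 CPM in the input library against 189.9 CPM in the RIP library on each of its rows, a ratio of 7.78 (7.22 to 8.41). *Qk* (ENSMUSG00000062078, chromosome 17 from 10202601 to 10319854), which encodes the STAR-family protein quaking, had 23.9 CPM and 156.2 CPM, a ratio of 6.53 (6.04 to 7.06). *Hnrnpul1* had 102.4 CPM and 557.5 CPM, a ratio of 5.45 (5.25 to 5.66), and *Hnrnpr* 11.4 CPM and 41.3 CPM, a ratio of 3.62 (3.22 to 4.08). *Ptbp1*, the polypyrimidine tract binding protein, had 53.4 CPM and 142.2 CPM, a ratio of 2.66 (2.52 to 2.82). Its relative *Ptbp3* had a log2 ratio of 1.08, and *Hnrnpul2* one of 0.94.

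Of the other regulators in this group, *Mbnl1*, a muscleblind protein, had 5.45 CPM in the input library and 11.3 CPM after precipitation (log2 ratio 0.94), and *Rbfox2* had 5.19 CPM and 9.51 CPM (0.76). *Nova2* had 2.27 CPM and 5.53 CPM, a ratio of 2.44 (1.85 to 3.25). *Nova1* rested on 2 input reads (0.0648 CPM) against 40 FMRP RIP reads (1.10 CPM), a ratio of 16.9 whose interval runs from 4.38 to 144.4, while its log2 ratio with the added 1 CPM was 0.98. Of the 11 genes in the group, 6 were above 1 (54.5%, against 70.1% of all listed rows) and the median was 1.08. Without the added 1 CPM, 9 of the 11 were above 1, against 81.2% of the listed rows, and the median was 1.41 against 1.61.

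The RBM-named genes share a name, for RNA-binding motif, rather than a single role. *Rbm27*, whose product is a zinc finger protein linked to nuclear RNA decay, had 8.98 CPM in the input library against 135.2 CPM in the RIP library, a ratio of 15.1 (13.3 to 17.1) and rank 96. Its relative *Rbm26* had 9.26 CPM and 60.6 CPM, a ratio of 6.54 (5.78 to 7.42), and *Rbm6*, a regulator of alternative splicing, had 12.5 CPM and 76.5 CPM, a ratio of 6.14 (5.52 to 6.86). *Rbm33* had 26.1 CPM and 105.2 CPM, a ratio of 4.03 (3.74 to 4.36).

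*Rbm44*, a germ cell protein of the bridges between sister cells, had 28.7 CPM in the input library and 67.2 CPM after precipitation, a ratio of 2.34 (2.16 to 2.53). *Rbm25*, a splicing regulator, had 10.1 CPM and 16.4 CPM (log2 ratio 0.65), and *Rbm19*, a nucleolar protein of ribosome biogenesis, had 8.98 CPM and 14.3 CPM (0.62). These were among 4 RBM-named genes in the lowest 10% of all listed rows, with *Rbm15* and *Rbm12b1*, against 6 for all members together. *Rbm12b1* rested on 22.2 input reads, and its ratio of 2.0 had an interval from 1.22 to 3.52. *Rbm15b*, *Rbm17*, *Rbm47* and *Rbm12* lay between 1.12 and 1.64 in log2 ratio, and *Rbm31y*, on the Y chromosome, had 0.96. In the group, 9 of 14 genes were above 1 (64.3%, against 70.1% of all listed rows), and the median was 1.31.

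Integrator, which cuts the 3′ ends of small nuclear RNAs, the THO complex of mRNA export and the m6A writer adaptor *Virma* made the narrowest group, with log2 ratios between 0.85 and 2.11. *Ints1*, the largest Integrator subunit, had 24.7 CPM in the input library against 110.2 CPM in the RIP library, a ratio of 4.46 (4.12 to 4.82). *Ints9*, of the cleavage module, had 10.6 CPM and 35.7 CPM, a ratio of 3.36 (2.97 to 3.80). *Ints6* had 77.0 CPM and 201.1 CPM, a ratio of 2.61 (2.49 to 2.74), and *Thoc5* had 61.6 CPM and 169.9 CPM, a ratio of 2.76 (2.62 to 2.91). No gene of this group had a plain ratio of 5 or more.

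*Ints12* and *Ints4* had log2 ratios of 1.23 and 1.17. Under 1 were *Ints14* (0.86) and *Ints10*, which had 146.2 CPM in the input library and 264.5 CPM after precipitation and therefore a narrow interval around its ratio of 1.81 (1.75 to 1.88). *Virma*, with 29.8 CPM and 54.4 CPM, had a ratio of 1.83 (1.69 to 1.98), and *Thoc2*, with 1.78 CPM and 4.0 CPM, a ratio of 2.24 (1.63 to 3.12). The count above 1 was 6 of 10 (60.0%, against 70.1% of all listed rows), and the median 1.20.

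By input level, the members followed the other listed genes in part. Under 1 CPM in the input, 1 of 3 rows was above a log2 ratio of 1, against 50.0% of 548. From 1 to under 10 CPM in the input, 16 of 30 rows were above a log2 ratio of 1 (53.3%), against 66.1% of all 1923 listed rows of that level. From 10 to under 100 CPM, 30 of 37 rows were above 1 (81.1%), against 77.6% of 2015. At 100 CPM or more, 4 of 5 rows were (80.0%), against 81.8%, with a median of 1.22 against 1.56 for the 302 listed rows. Across genes, which are not independent replicates, the log2 ratio and the input CPM had a Spearman's rho of 0.32 over the 73 members and 0.25 over the 4745 listed symbols. Both axes share the input value, and the added 1 CPM lowers the log2 ratio of genes with a low input.

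**Figure D3:**
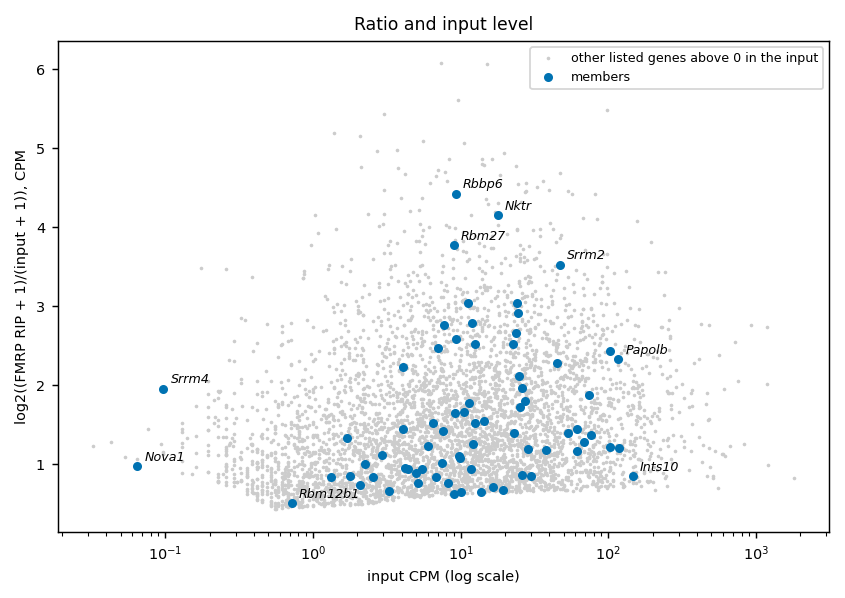
Log2 ratio against input CPM (log axis) for the 73 member genes (blue) and the other listed genes above 0 in the input (grey). The members lie inside the cloud of listed genes; *Srrm4* and *Nova1*, at 3 and 2 input reads, stand at the far left.

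Whether a splicing or 3′ end gene was in the table at all differed between symbol families. The reference annotation holds 205 protein-coding genes that match the symbol rule. Of these, 73 were listed (35.6%), against 21.3% of all 21900 protein-coding genes, expressed in testis or not. The rule was drawn up with earlier results of these data known, and some of its genes are named singly. How far this choice bears on the listed share was not tested. Listed were 16 of 34 SR proteins and RS-domain partners, 10 of 24 Integrator, THO and writer genes, 8 of 20 3′ end factors, 14 of 42 RBM-named genes, 11 of 33 hnRNPs and tissue regulators and 14 of 52 spliceosome genes. All 4 Scaf genes, 3 of 4 Srrm genes and 8 of 13 Prpf genes were listed. In contrast, 1 of 11 Srsf genes, 1 of 9 Sf3a and Sf3b genes, 4 of 21 Hnrnp genes, none of 12 Snrp genes (the core proteins of the snRNPs), none of the 3 U2af genes and neither Tra2 gene was listed. Among well-known factors outside the table were *Srsf1*, *Srsf2*, *Prpf8*, *U2af1*, *U2af2*, *Snrnp70*, *Hnrnpa1*, *Ptbp2*, *Rbmx*, *Cpsf6*, the m6A writer subunit *Wtap* and the testis-enriched *Rbmxl2* and *Cstf2t*. Values of genes outside the table were not analysed here, so an unlisted gene may be unchanged, lower or below the authors' filters.

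Taken over all genes of the symbol rule, the median span from start to end of the gene was 35.1 kb for the 73 listed and 14.1 kb for the 132 unlisted genes. Within single symbol families the order varied: of 16 families with listed and unlisted genes, the listed ones had the longer median span in 10 and the shorter in 6, among them Ints with 35.5 kb against 44.6 kb and Srrm with 34.2 kb against 67.9 kb. Over all protein-coding genes the listed share also increased with span, when the genes were put into 4 span classes of nearly equal size: 3.40%, 11.8%, 24.9% and 45.2%, from the shortest class to the longest. Among genes of the symbol rule the shares were 10% (2 of 20), 14.1% (9 of 64), 42.5% (31 of 73) and 64.6% (31 of 48). In each class they were above the share of all genes, least so in the second. The parts that expression in testis and the choice of the symbol rule have in this were not tested. Within the listed members, span and log2 ratio were weakly related (Spearman's rho 0.12 over 73 genes, and 0.16 over the 4745 listed symbols).

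**Figure D4:**
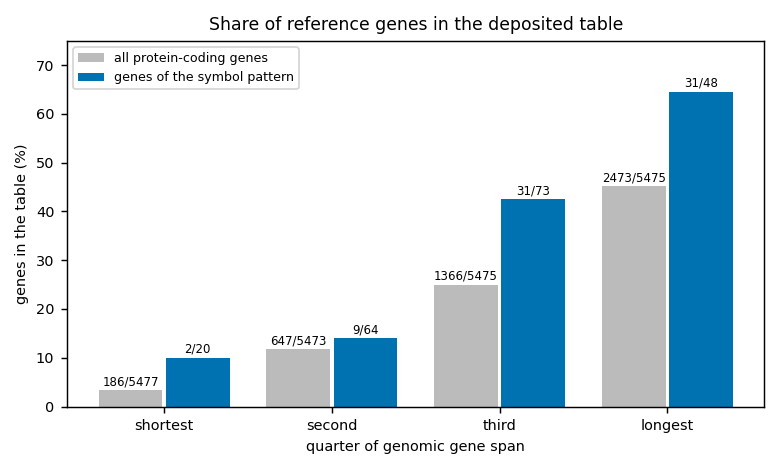
Share of reference protein-coding genes in the deposited table, by class of genomic gene span, from shortest to longest, for all genes (grey) and for genes of the symbol rule (blue), with the counts above each bar. Both increase with span, from 3.40% to 45.2% and from 10% to 64.6%.

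The ratios of related members were set beside each other for 11 pairs of genes, picked after their values were seen. In 9 of the 11 pairs the counting intervals did not overlap. The share among unrelated listed genes was not computed, so this count shows nothing particular to related genes. The widest gap was between the RS-tailed cyclophilins *Nktr* (18.7) and *Ppig* (1.76, interval 1.38 to 2.25), 10.6 times apart. *Srrm2* lay above *Srrm1* by 3.84 times, *Hnrnpul1* above *Hnrnpul2* (1.99, 1.76 to 2.26) by 2.73 times, *Rbm27* above *Rbm26* by 2.30 times and *Scaf11* (5.61, 4.64 to 6.83) above *Scaf1* (2.51, 2.23 to 2.83) by 2.24 times. *Rbm15b* (3.36, 2.94 to 3.84) and *Rbm15* (1.62, 1.47 to 1.80), both adaptors of the m6A writer, were 2.07 times apart. The pairs *Scaf4* with *Scaf8* and *Papola* with *Papolb* were closer, at 1.44 and 1.18 times. *Nova1* and *Nova2* are also among the 9 pairs with separate intervals, but *Nova1* had only 2 input and 40 FMRP RIP reads. With so few input reads it is listed because its FMRP RIP count was high. Its interval leaves this selection out, so no difference from *Nova2* is drawn from it. For *Ptbp1* with *Ptbp3* and *Rbm12* with *Rbm12b1*, the intervals overlapped. With 1 library per group, none of these differences has a replicate check.

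**Figure D5:**
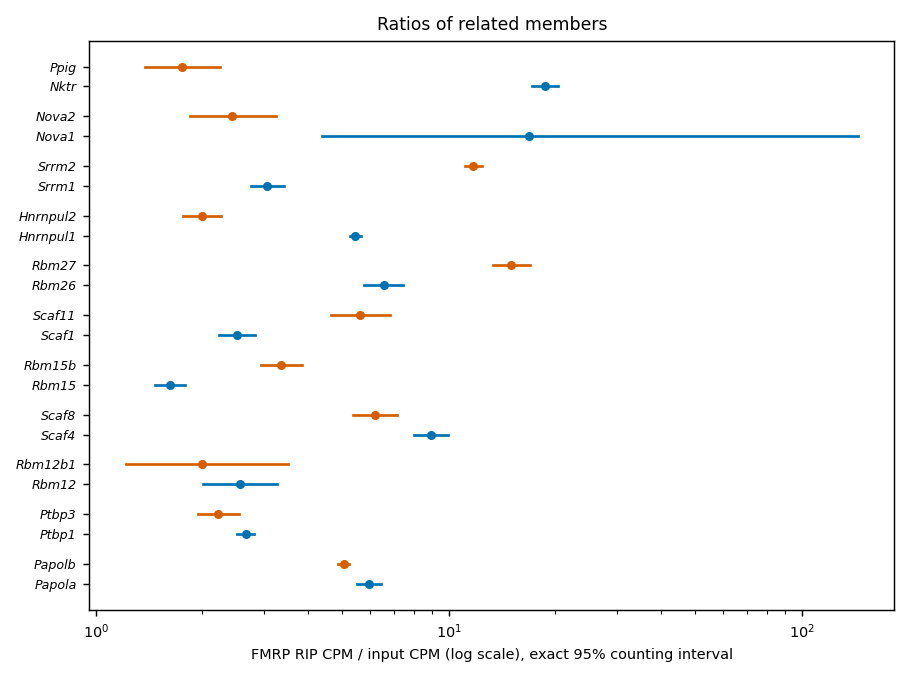
Plain ratio of FMRP RIP to input CPM (point) with its exact 95% counting interval (line) for 11 pairs of related members, on a log axis, with the widest gap at the top; the colours only tell the members of a pair apart. *Nktr* and *Ppig* are 10.6 times apart, and *Papola* and *Papolb* at the bottom are 1.18 times apart.

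Not all values were whole reads. Fractions of reads were found in at least 1 library for 31 of the 73 genes, and for 1284 of the 4788 listed rows. The source of these fractions was not tested. For *Sf1* and *Hnrnpu*, both rows of each gene held identical values, 849.5 input and 3582 FMRP RIP reads for each *Sf1* row and 752.5 and 6932 for each *Hnrnpu* row. Summed over their rows, *Sf1* had 1699 and 7164 reads and *Hnrnpu* 1505 and 13864, so the level of 1 row understates the gene while the ratio is the same. The span of 33 of the 73 genes overlapped another annotated gene, and whether the counting used strand is not given in the sources used here.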

How the data were processed

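RNA from 1 input and 1 FMRP RIP library of adult wild-type mouse testis was sequenced as paired ends. The submitters' processing notes name STAR and GRCm38/mm10, and the counting tool is not given in the sources used here. The authors deposited 1 table of CPM values per gene, restricted to protein-coding genes called higher in the FMRP RIP with edgeR. Its columns of fold change, p-value, adjusted p-value and calls hold the authors' own comparison and were not used. CPM values were whole multiples of 0.01 read, which gave the library totals, and 78.4% of the input values above 0 and 78.8% of the FMRP RIP values were whole reads, so no count test was run. The design had foreseen bins of transcript length and protein features, and gene span was used in their place because no transcript or protein sequences were used here.

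Members and lists were chosen with earlier results of these data known. Log2 ratios used a pseudocount of 1 CPM, with thresholds of 1 and of 1.5-fold. Intervals were computed at 95% from reads rounded to whole numbers, and since PCR duplicates are not independent molecules they cover counting error only. Genes were named by role group: the 4 highest and the 2 lowest with at least 100 reads over both libraries, whole groups of up to 8 genes, and a fixed list of 35 well-known factors, of which 14 were listed. Genes named beyond these were chosen after their values were seen. A member is counted in the totals but not reported here by name. All 75 rows matched a symbol in the GRCm38.p6 gene table from RefSeq, and the 73 on a chromosome overlapped its position there. Of the 4788 listed rows, 4717 matched by symbol or synonym, and their positions were not compared. The scripts were tested on simulated libraries. Values were computed in Python 3.11.15 with pandas 2.3.3 and numpy 2.4.6, intervals with scipy 1.17.1, and plots with matplotlib 3.10.9.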

Additional observations from a re-analysis of the deposited data

How the results depend on the processing

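The count of rows with a log2 ratio above 1 (51 of 75) was 43 with a pseudocount of 5 CPM, 59 with a pseudocount under 1 CPM, 61 with none, 50 of 72 when both libraries had to reach 1 CPM, 51 of 73 with at least 100 reads, and 49 of 73 with 1 row per gene symbol, the last chosen after seeing the data. Over all listed rows the shares under these settings were 51.7%, 79.7%, 81.2%, 72.7%, 73.1% and 70.1%. Setting the libraries equal in reads off the listed genes multiplies each FMRP RIP value by 1.92 and put all 75 rows, and 4786 of the 4788 listed rows, above 1, with a median of 2.31 against 2.24 for all listed rows. With members of whole reads in both libraries alone, 27 of 42 were above 1 (64.3%, against 69.3% of 3504 such listed rows) and 42 reached 1.5-fold, fewer because fewer rows enter, and the median was 1.22 against 1.33 for all such listed rows. The median was 1.15 with a pseudocount of 5 CPM, against 1.04 for all listed rows. Over all rows, members lay above the median of all listed rows with the added 1 CPM and 5 CPM. They lay below it with the smaller one (1.43 against 1.57) and none (1.44 against 1.61). With the added 1 CPM they also lay below it by gene symbol (1.33 against 1.35), at 1 CPM or more in both libraries (1.38 against 1.41) and at 100 reads or more (1.40 against 1.41). No order of these medians therefore holds. Of 172 values of 43 named genes, 66 left the counting interval of the main value, 43 of them under this scaling, which raises all genes alike. Leaving out a replicate could not be done with 1 library per group. No paired analysis was possible because there is only 1 input and 1 RIP library. Depth limits *Srrm4* and *Nova1*, at or under the floor of 3 input reads (0.0972 CPM).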

Other observations

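Genes outside the symbol rule were counted from a list of 95, also chosen with earlier results of these data known. It holds splicing and 3′ end factors and other RNA-binding regulators, such as the Y-box proteins, that are not all part of these processes. In the table were 38 of the 95 (40.0%, against 21.3% of all protein-coding genes). Of these, 23 had a log2 ratio above 1 (60.5%, against 70.1% of all listed rows), with a median of 1.17 against 1.35. The kinases that phosphorylate SR proteins had 5 of 8 genes listed (62.5%, against the same 21.3%), 4 of them above a log2 ratio of 1. *Srpk1* had 89.4 CPM in the input library and 447.8 CPM after precipitation, a ratio of 5.01 (interval 4.81 to 5.22), and *Srpk2* had 58.4 CPM and 391.9 CPM, a ratio of 6.71 (6.38 to 7.05). *Dyrk1a* had a log2 ratio of 2.51, *Clk2* of 1.86 and *Clk4* of 0.70. None of 5 exon junction complex genes was listed, a set too small to read against that share.

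Of 40 splicing helicases and core factors, 18 were listed (45.0%) and 9 had a log2 ratio above 1, which is 50.0% of those listed against 70.1%, with a median of 1.02 against 1.35. The highest was *Ddx46*, a helicase of early spliceosome assembly, with 10.2 CPM in the input library against 98.7 CPM in the RIP library, a ratio of 9.67 (8.61 to 10.9). The Y-box proteins, which bind and store mRNA in germ cells, differed among themselves. *Ybx1* had 98.9 CPM and 892.6 CPM (ratio 9.03, 8.70 to 9.37), *Ybx3* 164.9 CPM and 970.0 CPM (5.88, 5.71 to 6.06), and *Ybx2* 549.7 CPM and 890.7 CPM (1.62, 1.59 to 1.65), with intervals that lie apart. *Zc3h14*, a poly(A)-binding zinc finger protein, had 90.1 CPM and 566.5 CPM, a ratio of 6.29 (6.04 to 6.54). These genes were picked after their values were seen, and none of these ratios has a replicate check.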
